A study of Mus musculus with 4 samples.

Results

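Endothelial and fibroblast-like stromal cells were examined in mouse tumours labelled MB by the submitters. Cells were chosen by their own counts: 4 or more unique molecular identifiers (UMIs, each standing for 1 captured RNA molecule) summed over the endothelial genes Cldn5, Flt1, Pecam1, Cdh5 and Esam, or 4 or more over the fibroblast genes Dcn, Col1a1 and Lum. Cells with 2 or more UMIs over the leukocyte genes Ptprc, Tyrobp, Fcer1g and Laptm5 were left out, which removed 1 cell. The rule held for 64 of the 31150 cells that passed the filter, or 0.205% of them. Of these, 38 passed on the endothelial genes alone (the endothelial arm), 23 on the fibroblast genes alone (the fibroblast arm) and 3 on both.

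The study set tumours carrying fYap1;fSMO-M2;hGFAPcre (YSG), described as rescued animals, against fSMO-M2;hGFAPcre tumours (SG), in males and females at end point. SMO-M2 is a constitutively active form of Smoothened, the signal transducer of the Hedgehog pathway, and fYap1 is a floxed allele of Yap1, a transcriptional co-activator of the Hippo pathway. In all 4 groups Cre was driven by the human GFAP promoter, which is active in neural progenitors and glia. Each group (YSGm, YSGf, SGm and SGf, with m for male and f for female) was 1 library, so no difference between groups had a replicate check, and no test was made. The sources used here do not state how many animals went into a library, their ages or which exons were floxed. Intervals below are exact 95% intervals and cover counting error only.

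Vessels of the brain are lined by endothelial cells that are sealed by tight junctions and carry nutrients through dedicated transporters, which together form the blood-brain barrier. Sprouting vessels are led by tip cells, which answer VEGF through the receptor Kdr and pass Notch signals to their neighbours through Dll4. Fibroblasts of the brain lie mainly in the meninges and around larger vessels, where they make fibrillar collagens, retinoic acid and the chemokine Cxcl12. Endothelial cells and meningeal fibroblasts do not descend from the neural progenitors in which the GFAP promoter is active. Mural cells, which wrap vessels, share the matrix and PDGF receptor genes of fibroblasts but are known by Rgs5, Kcnj8, Acta2 and Tagln.

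The libraries held 58478914 to 86906706 UMIs in 7289 to 8505 barcodes, and 42 to 50 barcodes of each library also occurred in another library, none of them among the 64 cells. The 64 cells had a median of 6505 UMIs, with a range of 833 to 67433, against a median of 6500 UMIs in the other 31086 cells. Xist and Ddx3y UMIs followed the labelled sexes in all 4 libraries. Of the 64 cells, 14 had over 15000 UMIs, 9 of them in the endothelial arm and 3 in the fibroblast arm. In the endothelial arm these cells held 46.7% of the UMIs of YSGm and 75.9% of YSGf, against 22.0% of SGm and 64.6% of SGf. In the fibroblast arm they held 42.6% of the UMIs of SGm and 62.7% of SGf, and the SGf cell of 67433 UMIs had 7.12 UMIs per 10000 of fibroblast markers outside the rule. Results of the endothelial arm by library are therefore also given without these cells where that changed them.

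The promoters of Flt1 and Col1a2 are shown because they stand for the 2 arms: Flt1 encodes a VEGF receptor and was part of the endothelial rule, and Col1a2, a chain of type I collagen, was among the leading fibroblast-arm genes without being part of the rule. Both windows run from 250 bases before to 50 bases after the RefSeq gene start (GRCm38.p6), Flt1 on the minus strand at chr5:147725962-147726261 and Col1a2 on the plus strand at chr6:4505368-4505667. Capitals mark the letters GGAAG, the core bound by ETS transcription factors, and CCAAT, the CCAAT box, on either strand (CTTCC and ATTGG on the other strand).
Flt1: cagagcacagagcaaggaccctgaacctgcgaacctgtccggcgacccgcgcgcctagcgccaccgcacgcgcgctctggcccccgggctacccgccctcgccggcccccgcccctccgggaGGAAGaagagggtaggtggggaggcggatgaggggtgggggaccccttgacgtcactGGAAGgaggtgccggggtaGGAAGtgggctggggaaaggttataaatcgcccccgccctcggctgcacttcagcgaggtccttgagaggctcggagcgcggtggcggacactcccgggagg
Col1a2: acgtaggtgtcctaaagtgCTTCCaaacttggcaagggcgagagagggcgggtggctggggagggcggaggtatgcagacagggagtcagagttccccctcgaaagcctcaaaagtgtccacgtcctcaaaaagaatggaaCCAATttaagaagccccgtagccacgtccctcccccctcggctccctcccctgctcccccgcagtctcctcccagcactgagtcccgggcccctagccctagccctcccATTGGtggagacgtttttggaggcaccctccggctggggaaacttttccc
GGAAG occurred 3 times in the Flt1 window and 1 time in the Col1a2 window, and CCAAT 0 times and 2 times. Of all 32851 RefSeq promoter windows of this length, 71.4% held GGAAG and 16.5% held it 3 or more times, while 37.4% held CCAAT and 11.7% held it 2 or more times. Over the genes that led each arm, GGAAG was in 15 of 17 windows of 11 endothelial-arm genes and in 13 of 16 windows of 11 fibroblast-arm genes. CCAAT was in 4 of those 17 windows and 6 of those 16. These are matches of letters, not measured binding sites.

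The rule genes themselves gave the counts that chose the cells. Arm totals differed between libraries, so these UMIs are not levels. Scaled to the arm totals, 0 of 5 endothelial rule genes were 2-fold apart between YSG and SG in either sex. Their median log2 ratio of YSG over SG was -0.09 in males and -0.61 in females. Cldn5, a tight-junction claudin, had 60 and 218 UMIs in the YSGm and YSGf endothelial arms, against 158 in SGm and 384 in SGf. Flt1 had 28 in YSGm and 67 in YSGf, against 109 in SGm and 133 in SGf, and Esam, a junctional adhesion molecule, had 14 in YSGm and 49 in YSGf, against 45 in SGm and 92 in SGf. The adhesion receptor Pecam1 had 20 in YSGm and 23 in YSGf, against 41 in SGm and 42 in SGf. Cdh5, the cadherin of endothelial junctions, had 7 in YSGm and 26 in YSGf, against 18 in SGm and 28 in SGf. In the fibroblast arm the collagen-binding proteoglycan Dcn had 197 UMIs in SGm and 107 in SGf, Col1a1, the other chain of type I collagen, 193 in SGm and 70 in SGf, and Lum, another small proteoglycan, 42 in SGm and 17 in SGf. All 5 endothelial genes were thus found in every library, and all 3 fibroblast genes in both SG libraries.

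The label was checked against markers that the rule did not use. Of 21 other endothelial genes, 19 had enough UMIs (20 or more over both arms) to be compared, and 19 of the 19 were 2-fold or more higher in the endothelial arm than in the fibroblast arm. Of 20 other fibroblast genes, 17 of the 17 that could be compared were 2-fold or more higher in the fibroblast arm. Summed over the list, the other endothelial genes stood at 5183 CPM (UMIs divided by the group's total and scaled to a common total, which makes groups of different depth comparable) in the endothelial arm, 420 CPM in the fibroblast arm and 53.5 CPM in other cells. The other fibroblast genes stood at 345 CPM in the endothelial arm, 10480 CPM in the fibroblast arm and 152 CPM in other cells. Most cells of both arms thus carried markers of their label that had no part in choosing them.

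**Figure D1:**
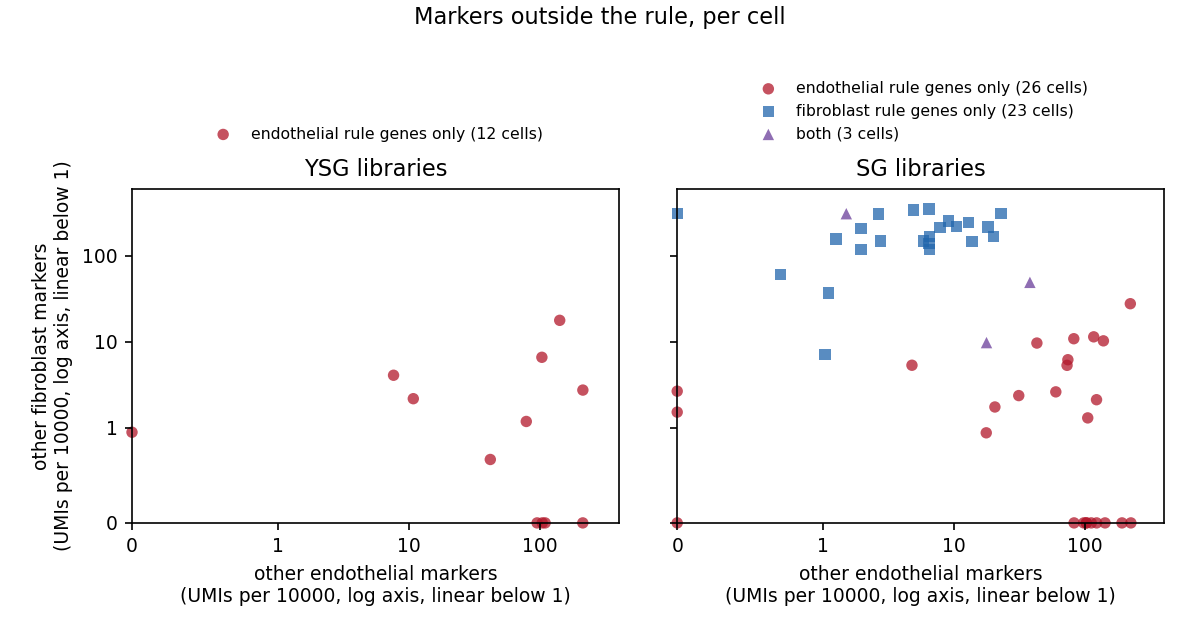
Each point is 1 of the 64 cells, with the UMIs per 10000 of the other endothelial markers on the x axis and of the other fibroblast markers on the y axis (log axes, linear below 1); YSG libraries are on the left and SG libraries on the right. The 23 fibroblast-arm cells lie at 7.12 or more fibroblast UMIs per 10000 and all come from SG libraries, and 4 endothelial-arm cells lie at 0 on the x axis.

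Support for the label was absent in 4 of the 38 endothelial-arm cells, which had 0 UMIs of the other endothelial markers. Of these, 1 was in YSGf, with 4 UMIs of the rule genes, and 3 were in SGm, with 4, 4 and 5. Some large cells had few of these markers, against an arm median of 96.5 UMIs per 10000. The YSGf cells of 64002 and 23086 UMIs held 7.66 and 10.8 per 10000, and the SGf cell of 18826 UMIs held 4.78. In those YSGf cells granule-lineage genes (described below) stood at 45.6 and 29.0 per 10000, against a median of 36.4 in other YSGf cells. Just outside the cut, 10 cells had 3 UMIs of the endothelial rule genes, 6 of them with 2 or more UMIs of the other endothelial markers, and 0 cells had 3 UMIs of the fibroblast rule genes. In every fibroblast-arm cell 2 or more UMIs of the other fibroblast markers were found. All 10 genes of the myeloid list were at 0 UMIs in all 64 cells.

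Markers of other cell types were present in some members. Granule-lineage genes, which mark the tumour cells' own lineage, summed to 1729 CPM in the endothelial arm and 1763 CPM in the fibroblast arm, against 2934 CPM in other cells. The YSGf cell of 64002 UMIs held 292 of the 427 granule-lineage UMIs of the YSGf endothelial arm, and 20 of 23 fibroblast-arm cells held 2 or more. In the endothelial arm haemoglobin UMIs lay in 2 SGm cells, with 1839 and 502 UMIs of the erythroid list, and the other 3 libraries had 0. Astroglial genes gave 113 and 61 UMIs in 2 SGm endothelial-arm cells and 111 UMIs in 1 SGm fibroblast-arm cell. Mural markers summed to 244 CPM in the endothelial arm and 1303 CPM in the fibroblast arm, where 21 of 23 cells held 2 or more UMIs of them, against 18.7 CPM in other cells. Of the 3 that could be compared, Vtn and Pdgfrb were higher in the fibroblast arm and Rgs5 in the endothelial arm. Rgs5 had 46 UMIs in the endothelial arm, 33 of them in 1 SGm cell, and 4 in the fibroblast arm, and Acta2 and Notch3 had 0 in both. The part of these transcripts in the results below was not tested beyond the values given beside them.

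In males and in females alike, stromal cells were rarer among YSG cells than among SG cells. The rule held for 4 of 7882 cells in YSGm, or 0.0508% (interval 0.0138 to 0.130%), against 25 of 8419 in SGm, or 0.297% (0.192 to 0.438%). In females it held for 8 of 7193 cells in YSGf, or 0.111% (0.0480 to 0.219%), against 27 of 7656 in SGf, or 0.353% (0.233 to 0.513%). The YSG over SG ratio of shares was 0.171 (0.0432 to 0.495) for males, and for females it was 0.315 (0.124 to 0.714). Both intervals lie below 1, but they hold no variation between animals. Because a share is relative, fewer stromal cells and more of the other cells cannot be told apart.

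Fibroblast-arm cells were found in SG libraries only: 0 of 7882 cells in YSGm and 0 of 7193 in YSGf. Taking 3 counts as the limit for 0 gives shares of 0.0381% in YSGm and 0.0417% in YSGf, and the wider exact 95% intervals reach 0.0468% and 0.0513%. Against these stood 14 cells in SGm, or 0.166%, and 9 in SGf, or 0.118%. The YSG over SG ratio of shares was 0, with an interval up to 0.322 for males and up to 0.539 for females. Endothelial-arm cells were 4 in YSGm and 8 in YSGf, against 10 in SGm and 16 in SGf. Their ratio of shares was 0.427 (0.0978 to 1.48) for males and 0.532 (0.197 to 1.32) for females, and both intervals include 1. Whether the 2 arms differed in their ratios was not tested.

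**Figure D2:**
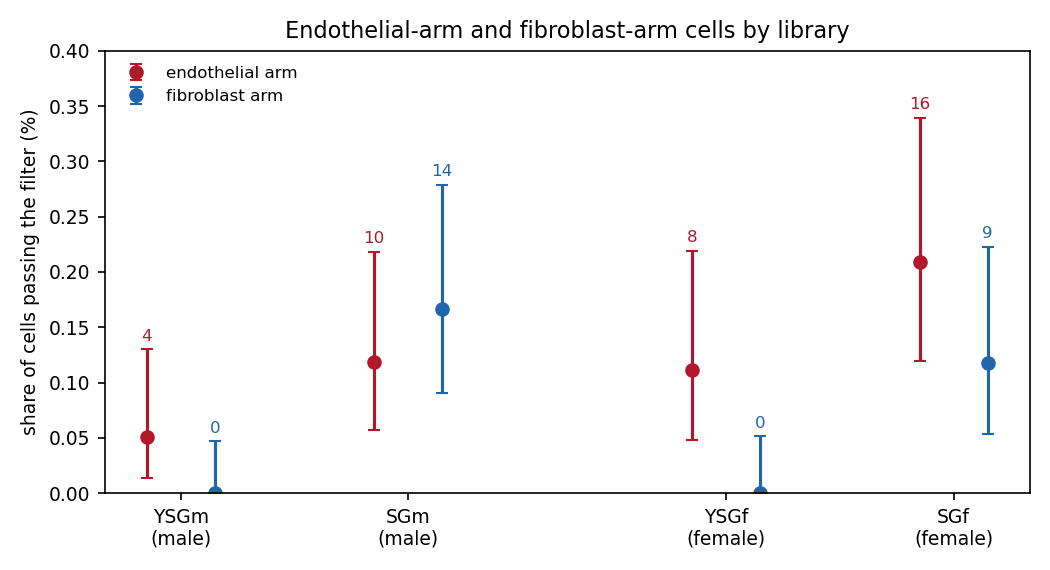
Share of cells passing the filter that fell in the endothelial arm (red points) and the fibroblast arm (blue points) in each library, YSG left of SG in each sex, with exact 95% intervals and the number of cells above each interval. The YSG libraries have 0 fibroblast-arm cells, with upper bounds of 0.0468% in YSGm and 0.0513% in YSGf, and the SG libraries have 14 and 9.

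Pooled over the libraries, genes of vessels and of connective tissue led the comparison of the 64 cells with the other cells. Since the members were selected on counts of the same cells, these values describe them and test nothing. Of 3019 genes with 50 or more UMIs in members, 158 (5.23%) were 4-fold or more higher than in other cells in each of the 4 libraries. Outside the rule the leading genes included Ctla2a, which encodes a cysteine protease inhibitor, at 1196 CPM in members against 0.435 CPM in other cells. Igfbp7, an IGF-binding protein of vessel walls, stood at 1111 CPM against 0.812 CPM and was detected in 57 of the 64 cells, in both arms. Apod, a lipid-carrying apolipoprotein, stood at 1412 CPM against 1.61 CPM, and Slco1c1, a transporter of thyroid hormone, at 482 CPM against 0.291 CPM. Most of these leaders belonged to 1 arm: Cd93, Ptprb, Adgrl4, Slco1a4, Adgrf5, Kdr, Ly6c1 and Eng to the endothelial arm, and Vtn, Bgn, Col1a2, Col15a1 and Itih5 to the fibroblast arm. Icam1 was found in 19 cells of the endothelial arm and 10 of the fibroblast arm, and Id3, a target of BMP signalling, in 25 and 18.

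Between the arms, 5622 genes had 20 or more UMIs over both. Of these, 466 (8.29%) were 2-fold or more higher in the endothelial arm and 335 (5.96%) were 2-fold or more lower, on a log2 scale with 10 CPM added. Without the cells over 15000 UMIs, 735 of 2814 genes were 2-fold or more apart, against 801 of 5622 with them. Leading genes were taken outside the rule, among those with 50 or more UMIs that were found in 30% or more of the cells of the higher arm. The endothelial arm was led by Ctla2a, with 1975 CPM in 34 of 38 cells against 0 in the fibroblast arm, followed by Egfl7, a factor secreted by vessel walls, Adgrl4, an adhesion receptor, Slco1c1, Kdr and Cd93. Ly6c1 stood at 259 CPM and Lrp8, a receptor of reelin, at 195 CPM in the endothelial arm, against 0 for both in the fibroblast arm. The fibroblast arm was led by Col15a1, with 0 CPM in the endothelial arm and 696 CPM in the fibroblast arm, and Col1a2, with 7.40 CPM and 1089 CPM. Igfbp5, Slc6a13, Col4a5 and Fstl1 followed, with Slc6a13, a carrier of GABA and taurine in the leptomeninges, in 0 of 38 endothelial-arm and 19 of 23 fibroblast-arm cells.

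Blood-brain barrier genes were an endothelial-arm group: 19 of the 24 that could be compared were 2-fold or more higher there and 0 were lower, with a median log2 ratio of 2.15 against -0.0036 over all genes compared. Slc2a1, the glucose transporter of the barrier, had 153 UMIs in 33 of 38 endothelial-arm cells (377 CPM) and 6 UMIs in the fibroblast arm (26.2 CPM). By library it had 19 and 67 UMIs in the YSGm and YSGf endothelial arms, against 26 in SGm and 41 in SGf. Tfrc, the transferrin receptor, stood at 996 CPM in the endothelial arm against 52.5 CPM in the fibroblast arm, and Slc16a1, the carrier of lactate and ketone bodies, at 641 CPM in the endothelial arm against 39.4 CPM in the fibroblast arm. Mfsd2a, the lysolipid carrier that limits transcytosis, had 49 UMIs in the endothelial arm against 0 in the fibroblast arm, and the drug efflux pump Abcb1a had 64 against 3 in the same arms. Bsg, the chaperone of lactate carriers, was found in 38 of 38 endothelial-arm cells (2786 CPM) and in 20 of 23 fibroblast-arm cells (490 CPM). Plvap, which forms the diaphragms of leaky vessels, was at 0 UMIs in both arms.

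Genes that keep the barrier under Wnt control went the same way. Of 13 genes compared, 8 were 2-fold or more higher in the endothelial arm and 0 lower, with a median log2 ratio of 1.52. Lef1, a nuclear effector of Wnt signalling, had 59 UMIs in the endothelial arm against 5 in the fibroblast arm. In the same arms its target Apcdd1 had 102 against 14, and the barrier transcription factor Foxq1 had 60 against 6. Ctnnb1, beta-catenin, stood at 279 CPM in the endothelial arm and 297 CPM in the fibroblast arm. Among endothelial transcription factors 12 of 18 were higher and 3 lower. The ETS family members Fli1 (47 UMIs in the endothelial arm against 1 in the fibroblast arm), Erg (25 against 0) and Ets1 (348 CPM against 127 CPM) were among the higher ones, with Epas1, the hypoxia-inducible factor of vessels, at 291 CPM against 35.0 CPM. The lower ones were Nr2f2, Klf4 and Klf2, the last at 301 CPM in the endothelial arm and 1050 CPM in the fibroblast arm. Klf2 and Klf4 also belong to the immediate early list, of which 6 of 19 genes were lower in the endothelial arm and 1 higher.

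Genes of sprouting vessels were found in the endothelial arm as well. Of 13 tip-cell and angiogenic genes compared, 8 were higher and 0 lower, with a median log2 ratio of 1.72. Apln, the ligand apelin that tip cells release, had 90 UMIs in 16 of 38 endothelial-arm cells against 0 in the fibroblast arm. Angpt2, the vessel-destabilising angiopoietin, had 45 UMIs and Dll4, the Notch ligand, 36 in the endothelial arm, against 0 for both in the fibroblast arm. Of VEGF and angiopoietin genes, 7 of 9 were higher, Flt1 by the rule, and among the others were the receptors Kdr (168 UMIs in the endothelial arm against 1 in the fibroblast arm) and Tek (26 against 0). The ligand Vegfa was lower, at 32.1 CPM in the endothelial arm and 105 CPM in the fibroblast arm, against 52.8 CPM in other cells. Pdgfb, the ligand that recruits mural cells, had 52 UMIs in the endothelial arm and 0 in the fibroblast arm, while its receptor Pdgfrb had 3 UMIs in the endothelial arm and 33 in 16 of 23 fibroblast-arm cells.

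Adhesion molecules through which leukocytes enter tissue were higher in the endothelial arm for 8 of 9 genes compared, of which Esam and Pecam1 were rule genes. Icam1, the ligand of leukocyte integrins, stood at 404 CPM in the endothelial arm against 131 CPM in the fibroblast arm, and Vwf, which binds platelets, had 60 UMIs in the endothelial arm against 0 in the fibroblast arm. Vcam1, an integrin ligand, had 17 UMIs in the endothelial arm and 12 in the fibroblast arm, and Sele, E-selectin, had 13 and 0 in the same arms. Ackr1, a chemokine-binding receptor of venules, had 37 UMIs in the endothelial arm against 1 in the fibroblast arm, but 27 of the 37 came from 1 YSGf cell and 8 from 1 YSGm cell. Among chemokines and cytokines 2 of 9 were higher in the endothelial arm, Cxcl2 (128 UMIs in the endothelial arm against 1 in the fibroblast arm) and Kitl (102 against 18), and 5 were lower. Those were Ccl2 (9 UMIs in the endothelial arm and 157 in the fibroblast arm), Ccl7 (0 and 101), Cxcl10 (5 and 28), Cxcl12 (6 and 159) and Il34 (1 and 31). Ccl2 and Ccl7 attract monocytes, and Il34 is a ligand of the macrophage receptor Csf1r. The class I antigen presentation genes H2-K1, H2-D1 and B2m differed by less than 2-fold between arms, with B2m, the light chain of class I, at 143 CPM in the endothelial arm, 87.5 CPM in the fibroblast arm and 24.2 CPM in other cells. The class II genes H2-Aa, H2-Ab1, H2-Eb1 and Cd74 were at 0 UMIs in both arms, and the checkpoint ligand Cd274 had 0 in the endothelial arm and 1 in the fibroblast arm.

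**Figure D3:**
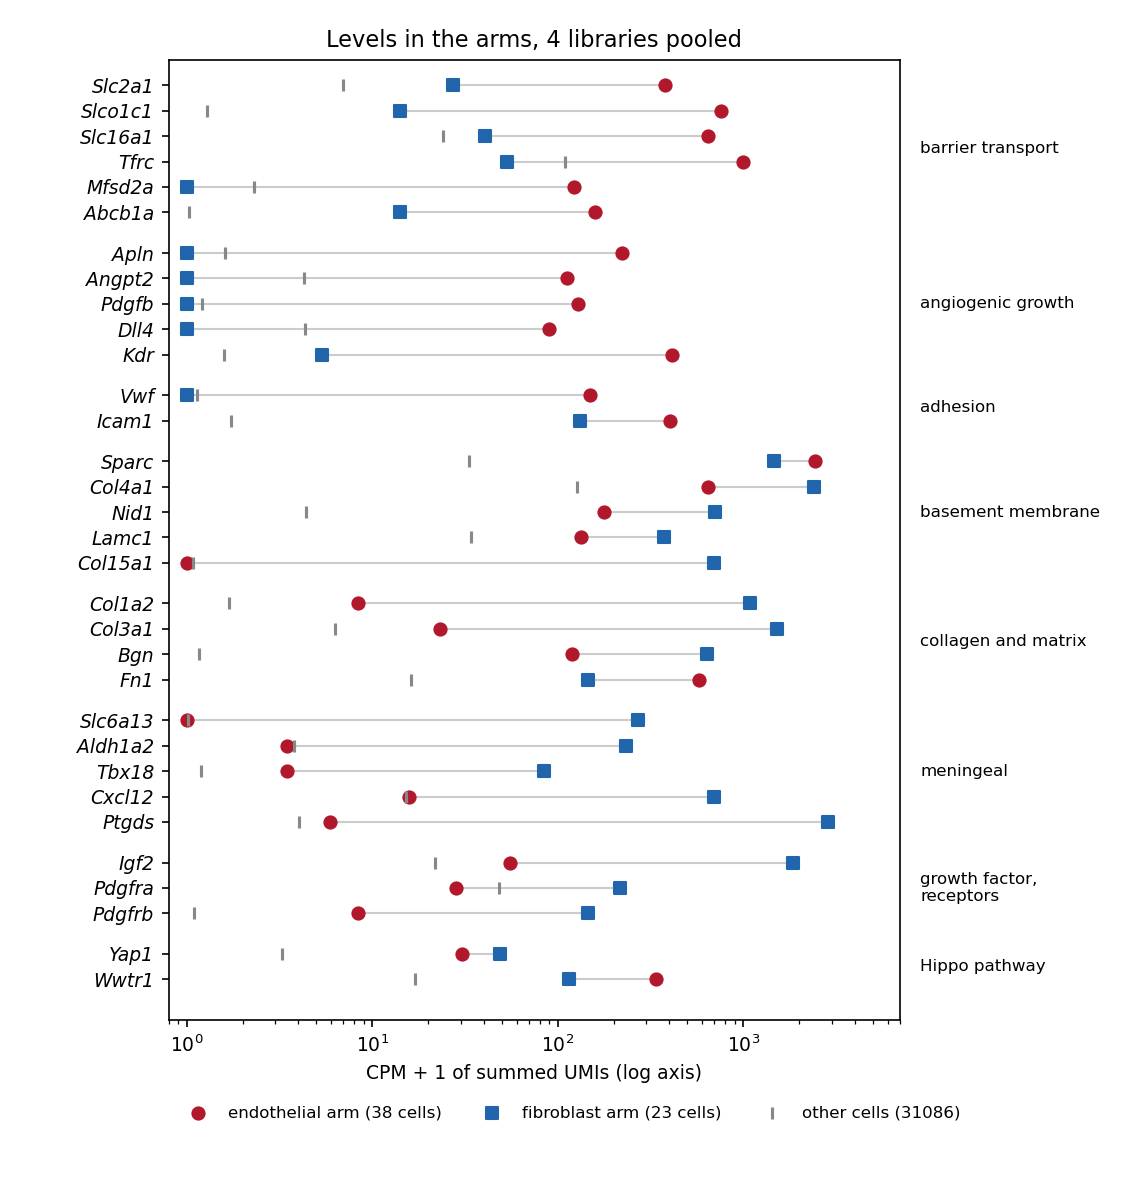
CPM + 1 of summed UMIs (log axis) of named genes in the endothelial arm (red circles, 38 cells), the fibroblast arm (blue squares, 23 cells) and the other 31086 cells (grey ticks), with the 4 libraries pooled. Barrier and angiogenic genes lie to the right in the endothelial arm, and collagen and meningeal genes lie to the right in the fibroblast arm, while Fn1 and Sparc lie to the right in the endothelial arm.

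The fibroblast arm carried connective-tissue matrix. All 5 fibrillar collagen genes compared were lower in the endothelial arm, with a median log2 ratio of -5.56; Col1a1 was a rule gene. Col3a1, type III collagen, had 9 UMIs in the endothelial arm and 346 in the fibroblast arm, where 257 came from SGm and 89 from SGf. Of 17 proteoglycan and matricellular genes, 15 were lower in the endothelial arm, Dcn and Lum by the rule, and Fn1, fibronectin (577 CPM in the endothelial arm against 144 CPM in the fibroblast arm), and Igfbp7 (1664 CPM against 416 CPM in the same arms) were higher. Basement membrane genes were found in both arms. Of 16 genes, 10 were lower in the endothelial arm and 0 higher: Col4a1, a type IV collagen chain, stood at 646 CPM in the endothelial arm and 2410 CPM in the fibroblast arm, and Nid1, which links laminin to collagen IV, at 178 CPM in the endothelial arm and 704 CPM in the fibroblast arm. Lama4, a laminin of vessel walls, differed by less than 2-fold, at 121 CPM in the endothelial arm and 179 CPM in the fibroblast arm, and so did Sparc, a collagen-binding glycoprotein, at 2444 CPM and 1461 CPM in the same arms.

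The fibroblast arm also carried meningeal genes. Of 17 compared, 11 were lower in the endothelial arm and 1 was higher. Cxcl12 was found in 22 of 23 fibroblast-arm cells, with 98 UMIs in SGm and 61 in SGf. Aldh1a2, which makes retinoic acid, had 53 UMIs in 15 of 23 cells, against 1 UMI in the endothelial arm, and the transcription factor Tbx18 had 19 against 1. Ptgds, prostaglandin D synthase, had 656 UMIs but in only 6 of 23 cells, and Slc22a6, an organic anion transporter, had 10 UMIs. Igf2, a growth factor of the meninges and choroid plexus, stood at 54.3 CPM in the endothelial arm and 1855 CPM in 22 of 23 fibroblast-arm cells. The receptors Igf1r (328 CPM in the endothelial arm against 74.4 CPM in the fibroblast arm) and Insr (63 UMIs against 1 in the same arms) were higher in the endothelial arm. Pdgfra was found in 17 of 23 fibroblast-arm cells and Vtn, which the list of mural markers also holds, in 21 of 23. Immediate early genes, which tissue dissociation can induce, summed to 9405 CPM in the endothelial arm and 16100 CPM in the fibroblast arm, against 3279 CPM in other cells.

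Yap1, the gene floxed in YSG tumours, was measured in few molecules. In other cells it had 9 UMIs in YSGm and 1 in YSGf (0.148 and 0.0172 CPM), against 253 in SGm and 364 in SGf (3.47 and 4.21 CPM). In the endothelial arm it had 1 UMI in YSGm and 2 in YSGf (31.0 and 14.8 CPM), against 3 in SGm and 6 in SGf (37.5 and 37.9 CPM). The YSG over SG ratio in the endothelial arm was 0.826 (0.0157 to 10.3) for males and 0.390 (0.0385 to 2.18) for females, so a difference was not detectable at this depth. Within libraries, members stood above other cells, by 14.9-fold (7.83 to 26.0) in SGm and 8.21-fold (3.91 to 15.3) in SGf. With 1 and 2 UMIs in YSGm and YSGf, the same ratios were 210 (4.78 to 1513) and 861 (44.8 to 50790). The fibroblast arm had 8 Yap1 UMIs in SGm and 3 in SGf. The position of the counted 3' ends relative to the floxed exons is not known here.

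Wwtr1, which encodes the Yap1 paralog Taz, had 137 UMIs in 30 of 38 endothelial-arm cells (338 CPM) and 26 UMIs in 12 of 23 fibroblast-arm cells (114 CPM), against 16.1 CPM in other cells. By library the endothelial arm had 9 UMIs in YSGm and 22 in YSGf (279 and 163 CPM), against 36 in SGm and 70 in SGf (450 and 443 CPM). The YSG over SG ratio was 0.620 (0.263 to 1.31) for males and 0.368 (0.217 to 0.601) for females. EYFP, a fluorescent protein sequence that the matrices list as a feature, had 1 and 2 UMIs in the YSGm and YSGf endothelial arms, against 2 in SGm and 5 in SGf. Members over other cells gave EYFP ratios of 0.612 (0.0155 to 3.41) in YSGm and 0.519 (0.0628 to 1.88) in YSGf, against 0.564 (0.183 to 1.32) in SGm and 0.646 (0.279 to 1.27) in SGf, and every interval includes 1. Most EYFP UMIs of members lay in cells over 15000 UMIs. In SGf all 8 lay in cells of 18826, 31767, 34593 and 67433 UMIs. In SGm 1 lay in a cell of 7690 UMIs, and the others in cells of 17552, 36257 and 50267 UMIs. In YSGm the 1 UMI lay in the cell of 15043 UMIs. In YSGf 1 lay in the cell of 64002 UMIs and 1 in the cell with 0 UMIs of the other endothelial markers. The ratio in smaller cells was not tested. Smo, which the SMO-M2 allele encodes in mutant form, had 3 UMIs in YSGm and 5 in YSGf, against 1 in SGm and 3 in SGf, in the endothelial arm. Of 13 Yap1 and Taz target genes compared between arms, 2 were higher in the endothelial arm (Tgfb2 and Foxf2) and 4 lower (F3, Amotl2, Rbms3 and Igfbp3). Ccn1, a matricellular target, had 3 UMIs in YSGm and 45 in YSGf, against 39 in SGm and 26 in SGf.

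The endothelial arm was the only arm with cells in all 4 libraries, and YSG was compared with SG there, sex by sex. Its UMIs summed to 32248 in YSGm and 135139 in YSGf, against 79943 in SGm and 158206 in SGf, so that equal UMIs are not equal levels, and ratios below are of CPM. In males 999 genes had 20 or more UMIs over both libraries, of which 57 (5.71%) were 2-fold or more higher in YSGm and 103 (10.3%) lower. In females 3187 genes were compared, of which 237 (7.44%) were higher in YSGf and 296 (9.29%) lower. A gene's UMIs often lay in 1 cell: for 39 of the 57 genes higher in YSGm and 173 of the 237 higher in YSGf, 1 YSG cell held 50% or more of that library's UMIs. Among the lower genes, 1 SG cell held 50% or more for 23 of 103 in males and 13 of 296 in females. Of 983 genes compared in both sexes, 12 were 2-fold or more higher in both, 15 were lower in both and 8 went opposite ways.

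Ifitm3, an interferon-induced restriction factor, led the genes that were higher in YSG in both sexes. It had 27 UMIs in 3 of 4 YSGm cells and 56 in 7 of 8 YSGf cells, against 3 UMIs in 3 of 10 SGm cells and 9 in 4 of 16 SGf cells. YSGm stood 22.3-fold (6.87 to 115) above SGm, and YSGf stood 7.28-fold (3.58 to 16.8) above SGf. Ly6a, a surface protein of endothelial and progenitor cells that interferon also induces, had 19 UMIs in YSGm and 30 in YSGf, against 5 in SGm and 11 in SGf. Both stayed higher without the cells over 15000 UMIs, with Ifitm3 at 21 and 22 UMIs in YSGm and YSGf against 2 in SGm and 4 in SGf. Others among the leading 10 of the 12, ranked by the smaller ratio of both sexes, were the chaperones Hspa1a and Hsph1, the microtubule protein Map1b, the cyclin Ccnd2, the mitochondrial ATPase inhibitor Atpif1, the ribosomal protein Rpl29 and the splicing factor Bcas2. Hspa1a had 34 UMIs in YSGm, 94.1% of them in 1 cell, against 2 in SGm, and 60 in YSGf against 30 in SGf. Ccnd2 had 92.3% of its YSGm UMIs in 1 cell. Without the cells over 15000 UMIs, Ccnd2 was lower in YSGm (log2 ratio -1.24) and Rpl29 was lower in YSGf (-0.15). Map1b, Ccnd2, Atpif1, Bcas2 and Hsph1 were lower in the endothelial arm than in other cells, with Ccnd2 at 444 CPM against 876 CPM. Rpl29 and Hspa1a were higher there than in other cells.

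Ifitm3 is part of the interferon-response list, so levels of the list partly repeat that gene, and levels without it were not tested. The list as a whole had few UMIs. Per cell it had a median of 18.3 UMIs per 10000 in YSGm (range 9.31 to 51.7) and 17.2 in YSGf (2.85 to 35.5), against 4.10 in SGm (0 to 13.3) and 2.84 in SGf (0 to 25.3), and the ranges overlap in both sexes. Genes with enough UMIs to be compared were 1 in males, Ifitm3 itself, and 3 in females, of which Ifitm3 was higher and 0 were lower. Bst2 had 9 and 5 UMIs in YSGm and YSGf, against 2 in SGm and 6 in SGf, and Ly6e had 9 and 18 in YSGm and YSGf, against 5 in SGm and 18 in SGf. H2-D1, a class I heavy chain, had 10 UMIs in YSGm against 14 in SGm (1.77-fold, 0.704 to 4.29) and 29 in YSGf against 16 in SGf (2.12-fold, 1.12 to 4.18). H2-K1 and B2m had ratios of 0.992 to 1.24 in both sexes, with intervals that include 1.

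**Figure D4:**
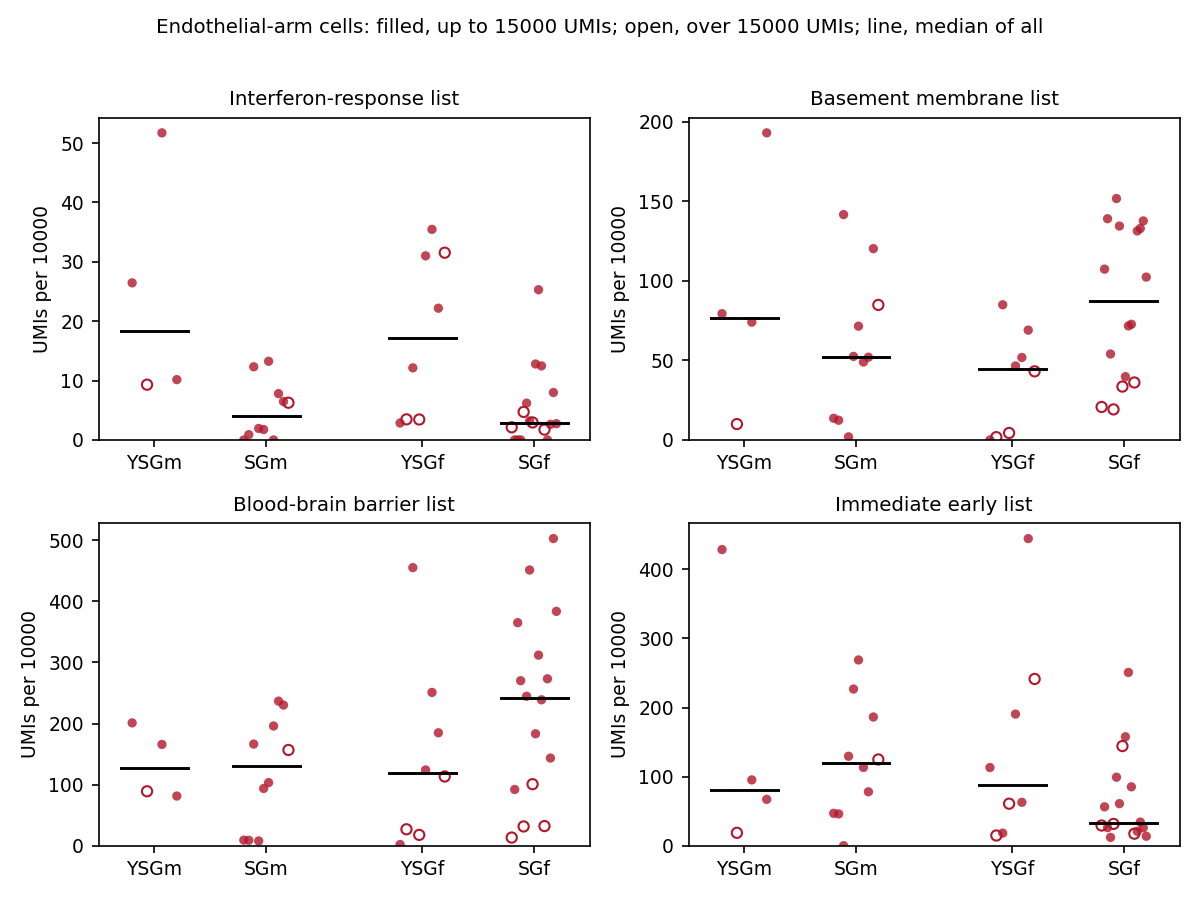
UMIs per 10000 of 4 gene lists in each endothelial-arm cell, by library, with YSG left of SG in each sex; filled points are cells of up to 15000 UMIs, open points are larger cells, and the line is the median of all. The interferon-response medians are 18.3 and 17.2 in YSGm and YSGf and 4.10 and 2.84 in SGm and SGf, and the cells of each pair of libraries overlap in all 4 lists. The interferon-response list includes Ifitm3.

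Barrier genes were lower in YSGf than in SGf. Of 21 compared in females, 13 were 2-fold or more lower and 0 higher, with a median log2 ratio of -1.10. Over all genes compared in females, 9.29% were lower and the median was -0.07. Of the other endothelial markers, 5 of 17 were also lower in YSGf and 1, Ly6a, higher, with a median log2 ratio of -0.38, and their sum stood at 3988 CPM in YSGf against 5790 CPM in SGf. Granule-lineage genes summed to 3160 CPM in YSGf against 1043 CPM in SGf, and the part of either in the barrier result was not tested. Tfrc had 36 UMIs in 6 of 8 YSGf cells against 297 in 15 of 16 SGf cells, a ratio of 0.142 (0.0975 to 0.201), and Car4, a carbonic anhydrase of capillaries, had 2 UMIs in YSGf against 43 in SGf. Slc16a1 had 51 in YSGf against 163 in SGf, and Slco1c1 had 63 in YSGf against 153 in SGf. Slc2a1 went the other way by less than 2-fold, with 67 UMIs in YSGf against 41 in SGf (1.91-fold, 1.28 to 2.90), and Slco1a4, an organic anion transporter, had 60 in YSGf against 48 in SGf. Per cell the list had a median of 127 UMIs per 10000 in YSGm and 119 in YSGf, against 130 in SGm and 242 in SGf, and the ranges overlap. In males 3 of 15 were lower, Tfrc, Slc16a1 and Apcdd1, and 0 were higher, with a median log2 ratio of 0.12. This male median was -0.32 without the 3 SGm cells that had 0 UMIs of the other endothelial markers, with 3 of 15 lower. It was 0.47 without the cells over 15000 UMIs. Tfrc had 9 UMIs in YSGm against 62 in SGm, a ratio of 0.360 (0.157 to 0.728). Without the cells over 15000 UMIs, 9 of 19 were lower and 1 higher in females, and in males 0 of 9 were lower and 1 higher, with Tfrc at 8 UMIs in YSGm against 35 in SGm (log2 ratio -0.27).

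Basement membrane genes were lower in YSGf for 6 of the 6 that could be compared, with a median log2 ratio of -2.30. Over all genes compared in females, 9.29% were lower and the median was -0.07. The part of the lower endothelial markers and higher granule-lineage genes of YSGf, given above, in this result was not tested. Col4a1 had 25 UMIs in YSGf against 147 in SGf (ratio 0.199, 0.125 to 0.306), Col4a2 had 16 in YSGf against 102 in SGf, and Nid1 had 3 in YSGf against 36 in SGf. Per cell the list had a median of 44.8 UMIs per 10000 in YSGf and 87.6 in SGf, with ranges of 0 to 85.0 and 19.2 to 152 that overlap. Without the cells over 15000 UMIs 5 of 6 compared were lower. In males 1 of 4, Nid1, was lower, with 2 UMIs in YSGm against 31 in SGm, and Col4a1 had 20 in YSGm against 70 in SGm, a ratio of 0.708 (0.408 to 1.18). The male median log2 ratio of the list was -0.51. It was -0.76 without the 3 SGm cells that had 0 UMIs of the other endothelial markers, and 0.08 without the cells over 15000 UMIs.

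Angiogenic genes were lower in YSGf for 4 of 5 compared, and VEGF and angiopoietin genes for 4 of 6, against 9.29% of all genes compared. The lists overlap: Angpt2 counts in both, and Kdr and Tie1 are also among the 5 lower endothelial markers given above. The part of the lower endothelial markers in this result was not tested. In males 1 of 2 angiogenic genes, Apln, and 0 of 4 VEGF and angiopoietin genes were lower in YSGm, and 0 were higher. Without the 3 SGm cells that had 0 UMIs of the other endothelial markers, 3 of those 4 were lower in YSGm. Apln had 0 UMIs in 8 YSGf cells against 50 UMIs in 10 of 16 SGf cells. In males it had 5 in YSGm against 35 in SGm, of which 18 lay in 1 SGm cell, and without the cells over 15000 UMIs it had 5 in YSGm against 17 in SGm (log2 ratio 0.09). Kdr had 21 UMIs in YSGf against 102 in SGf and 8 in YSGm against 37 in SGm, and the male ratio of 0.536 has an interval of 0.216 to 1.17 that includes 1. Without the 3 SGm cells that had 0 UMIs of the other endothelial markers, the male log2 ratio of Kdr was -1.36. Cell-cycle genes were lower in YSGf for 9 of 10. In the female cells of up to 15000 UMIs, 0 cell-cycle genes had enough UMIs to be compared. Among those smaller cells, 1 of 3 in YSGm and 1 of 5 in YSGf held 5 or more cell-cycle UMIs, against 6 of 9 in SGm and 1 of 12 in SGf. Of the 6 SGm cells, 3 had 0 UMIs of the other endothelial markers, and 2 held the 113 and 61 astroglial UMIs. Granule-lineage genes were higher in YSGf for 7 of 11, against 7.44% of all genes compared, and 292 of their 427 UMIs were those of the 64002-UMI cell.

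Immediate early genes differed in direction between the sexes, a difference that was not tested. In females 11 of 18 were higher in YSGf and 0 lower, and in males 2 of 16, Hspa1a and Hspa1b, were higher in YSGm and 7 lower. Over all genes compared, 7.44% were higher in YSGf and 9.29% lower, and 5.71% were higher in YSGm and 10.3% lower. Fos had 9 UMIs in YSGm against 148 in SGm, and 178 in YSGf against 52 in SGf. Without the cells over 15000 UMIs, 13 of 16 were higher in YSGf and 0 lower, and 3 of 16 were higher and 2 lower in YSGm. Haemoglobin genes were lower in YSGm for 4 of 4 compared, and all 2341 UMIs of that list lay in the 2 SGm cells named above. Astroglial genes were lower in YSGm for 5 of 6, with 23 UMIs in YSGm against 222 in SGm, of which 113 and 61 lay in 2 cells.

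The genes lower in YSG in both sexes were Nid1, Apcdd1, Prm1, Gadd45b, Selenop, Tfrc, Apln, Cltb, Ccdc141 and Sparcl1, 10 out of 15 ranked in the same way. Apcdd1, an inhibitor and target of Wnt signalling, had 2 UMIs in YSGm against 21 in SGm and 12 in YSGf against 67 in SGf. Selenop, a selenium carrier, had 6 UMIs in YSGm against 45 in SGm and 16 in YSGf against 105 in SGf. Prm1, a sperm protamine, had 0 UMIs in YSGm and 5 in YSGf, all in 1 cell, against 34 in SGm, 85.3% of them in 1 cell, and 26 in SGf. Without the cells over 15000 UMIs, 5 of the 10 genes higher in YSG and 3 of the 10 lower ones (Nid1, Apcdd1 and Selenop) remained 2-fold apart in both sexes, while 8 and 7 kept their direction in both. The higher ones included Ifitm3, Ly6a, Hsph1 and Hspa1a.

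**Figure D5:**
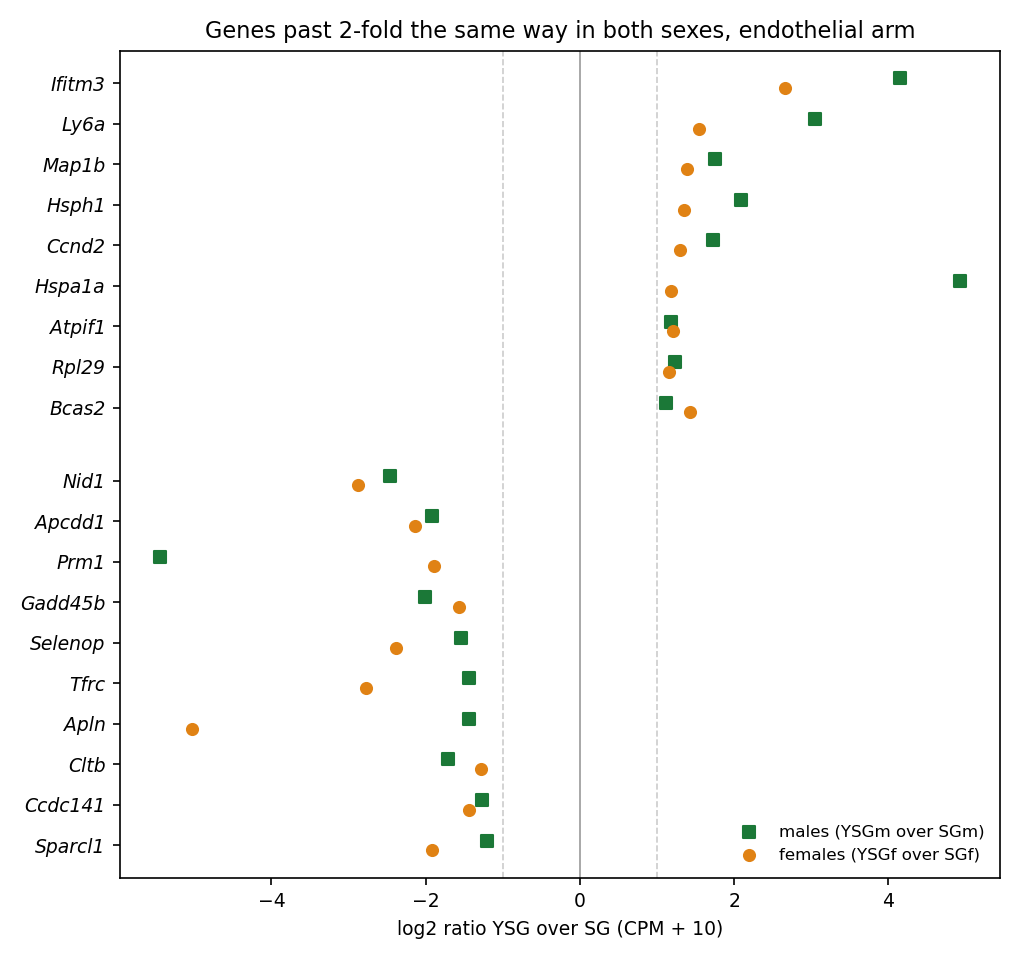
Log2 ratio of YSG over SG in endothelial-arm cells (CPM + 10) for the named genes that were 2-fold or more apart the same way in males (squares) and females (circles); dashed lines mark 2-fold. Ifitm3 lies farthest to the right in females, at 2.67, with 4.16 in males, and Apln lies farthest to the left in females, at -5.03, with -1.44 in males.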

How the data were processed

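Fresh tumours were dissociated and sequenced as 10x 3' single-cell libraries, per the labels' protocols, 1 library per group. The deposited matrices hold UMI counts per gene and barcode made with Cell Ranger 5.0.1, per the file headers, and the build was mm10, per the submitters' processing notes. Nothing was normalized by the authors in these counts.

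A barcode was kept as a cell if it held at least 500 UMIs from at least 300 genes, with no more than 20% of them mitochondrial. The members, gene lists and comparisons were chosen with earlier results of these data known. UMIs were summed per library and arm and given as CPM. Ratios were taken on a log2 scale after adding 10 CPM (1 CPM for members over other cells). Genes needed 20 UMIs over the groups compared (50 in members). With 1 library per group no test was made; share intervals are Clopper-Pearson, and fold intervals are exact conditional binomial. The limit for 0 is 3 counts.

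Genes named are the 20 leading members over other cells, 12 per direction between arms, up to 10 per direction past 2-fold the same way in both sexes, and genes of the lists chosen by level, ratio or pathway step. A few genes that these rules name are not reported here. Scrublet (scanpy 1.11.5) marked 0 cells at its own threshold, so it was not relied on and no doublets were removed. As an alternative, cells scoring above a cut set for the top 6% were left out, which was 4.85 to 5.30% of each library. Of the 64 members this removed 1, in SGf. The YSG over SG gene counts of the endothelial arm were identical, so this alternative could not check them for doublets. Python 3.11.15, numpy 2.4.6, scipy 1.17.1, pandas 2.3.3 and matplotlib 3.10.9 were used. Gene positions are from GENCODE M21.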

Additional observations from a re-analysis of the deposited data

Results flagged for a closer look

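In the endothelial arm 3 immediate early genes went opposite ways in the sexes, with exact intervals on opposite sides of 1. The difference between the sexes was not tested, since each group was 1 library. Fos, a subunit of the AP-1 transcription factor, had a YSG over SG log2 ratio of -2.69 in males (9 UMIs in YSGm against 148 in SGm) and 1.97 in females (178 in YSGf against 52 in SGf). Zfp36, an RNA-binding protein that destabilises cytokine transcripts, had -1.52 in males (4 UMIs in YSGm against 30 in SGm) and 1.18 in females (52 in YSGf against 26 in SGf). Dusp1, a phosphatase of MAP kinases, had -1.76 in males (5 UMIs in YSGm against 44 in SGm) and 1.31 in females (38 in YSGf against 17 in SGf). Without the cells over 15000 UMIs the signs were kept, with Fos at -1.76 in males and 2.62 in females, Zfp36 at -0.76 and 1.12, and Dusp1 at -0.56 and 2.71.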

How the results depend on the processing

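Of 69 alternatives, 59 left a result within its limits and 10 moved one. The limits were the main exact interval for a share or a ratio of shares, and a fixed fold either way for a number of genes. Only the ratios of shares could be scored as reversed, and 0 were. A number of genes can stay within its limits while its share changes. Between arms, 801 of 5622 became 735 of 2814 without members over 15000 UMIs. The YSG over SG ratio of member shares ran from 0.153 to 0.237 in males and from 0.240 to 0.328 in females over 8 alternatives each. Leaving out 1 library at a time, the fibroblast arm's share of members, 35.9%, ran from 23.1% (without SGm) to 41.1%. The 158 of 3019 genes higher in members ran from 101 of 1638 (without SGf) to 162 of 2885 (without YSGm). The 801 of 5622 genes 2-fold apart between arms ran from 712 of 3780 to 783 of 5448 without 1 library. They were 315 of 2688 with 50 UMIs required, and, of 5622, 1497 with each cell weighted equally and 391 with 50 CPM added. YSG over SG, the 160 of 999 genes of males were 30 of 293 with 50 UMIs required. The 533 of 3187 genes of females were 150 of 1091 with 50 UMIs required. Of the same 3187, they were 830 with each cell weighted equally and 295 with 50 CPM added. Without members over 15000 UMIs, an alternative chosen after seeing the data, they were 234 of 769, a larger share of fewer genes. The causes were not tested. No paired analysis was possible because each group was 1 library. Depth limits all genes of few UMIs: the YSGm endothelial arm was 4 cells with 32248 UMIs.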
